A study of Mus musculus with 16 samples.

Results

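The Fos and Jun genes encode the subunits of AP-1, a family of transcription factors that bind DNA as dimers through a basic region and a leucine zipper. The 9 genes described here are Fos, Fosb, Fosl1, Fosl2, Jun, Junb, Jund, Atf3 and Maff. They were taken from a list of AP-1 genes by their symbol in the platform annotation, and each was represented by its brightest probe set, by mean over the 16 arrays. All 9 were on the array and all 9 passed the filter on low values, out of 17097 genes on the array and 14819 tested. The samples were dermal fibroblasts of female C57Bl/6 mice aged 2 months (young) or 18 months (old). Part of the cells of each mouse was profiled right after isolation (labelled in vivo, here called fresh) and part after culture. This makes 4 groups of 4 arrays, the fresh young, fresh old, cultured young and cultured old samples. No genotype or treatment other than age and culture is given in the labels, and RNA of 5000 cells per sample was amplified over 23 cycles before hybridisation. The mice were collected over more than a day, with both ages on each day. The sources used here give neither the medium, passage and time in culture nor the mouse or day of a sample. Sample numbers within a group follow the serial numbers in the sample titles and do not tie samples of different groups together.

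AP-1 dimers pair a Jun protein with another Jun protein or with a Fos protein; Fos proteins need a Jun partner to bind DNA stably. Fos, Fosb, Jun, Junb and Atf3 are immediate early genes, whose transcription starts within minutes of a stimulus through factors already present in the cell and whose mRNAs are short-lived. Fosl1 and Fosl2 encode FRA-1 and FRA-2, Fos proteins without the strong activation domain of Fos and FosB, and they are usually induced later than Fos. In dermal fibroblasts AP-1 is known as a regulator of matrix metalloproteinases and of responses to growth factors, stress and wounding.

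The stretches upstream of 4 of these genes are shown because immediate early genes are known to be induced through short elements near the start, and because 3 of the genes fell together in culture (Fos, Jun and Atf3) and the fourth, Maff, did not pass the test. RefSeq promoter sequence was matched for 8 of the 9 genes, all but Fosl1 (10 entries, build GRCm38.p6). Each line is the 250 bases before the transcription start, 5′ to 3′ on the strand of the gene, with matched motifs in capitals. The entries are at chr12:85473640-85473889 (plus strand) for Fos, chr4:95052223-95052472 (minus strand) for Jun, chr1:191183334-191183583 (minus strand) for Atf3 and chr15:79347270-79347519 (plus strand) for the second of 3 Maff starts.
Fos: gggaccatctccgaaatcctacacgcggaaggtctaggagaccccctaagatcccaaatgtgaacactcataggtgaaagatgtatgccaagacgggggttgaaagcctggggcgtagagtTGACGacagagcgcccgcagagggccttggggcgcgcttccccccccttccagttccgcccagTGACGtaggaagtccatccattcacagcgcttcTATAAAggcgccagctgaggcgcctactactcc
Jun: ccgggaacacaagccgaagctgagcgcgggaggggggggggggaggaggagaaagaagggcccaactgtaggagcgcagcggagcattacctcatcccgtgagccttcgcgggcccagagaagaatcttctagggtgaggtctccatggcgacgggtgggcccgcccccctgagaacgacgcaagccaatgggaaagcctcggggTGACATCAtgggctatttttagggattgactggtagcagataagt
Atf3: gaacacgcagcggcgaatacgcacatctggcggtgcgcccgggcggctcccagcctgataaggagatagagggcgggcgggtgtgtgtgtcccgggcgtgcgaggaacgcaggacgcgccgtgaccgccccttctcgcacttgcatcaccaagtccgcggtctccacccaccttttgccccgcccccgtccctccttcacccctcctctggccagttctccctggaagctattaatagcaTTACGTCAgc
Maff: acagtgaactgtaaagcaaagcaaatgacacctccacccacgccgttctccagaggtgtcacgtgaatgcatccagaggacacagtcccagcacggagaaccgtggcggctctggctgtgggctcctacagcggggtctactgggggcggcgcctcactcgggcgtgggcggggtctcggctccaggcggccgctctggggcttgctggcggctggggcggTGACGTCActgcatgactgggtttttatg

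Motifs were searched on both strands of the 250 bases. The Fos stretch held TGACG, the core of the cyclic AMP element, at 129 and 66 bases before the start and TATAAA at 33 bases before it. TGACG was present in 17.8% and TATAAA in 12.4% of all 32851 promoter entries. TGACG also stood once in the Fosb stretch (60 bases before the start) and once in that of Junb (106 bases), and on the other strand at the third Maff start (122 bases). The Jun stretch held TGACATCA, the AP-1-like element of this promoter, at 45 bases before the start (2.93% of entries), and the third Maff start had the same letters at the same distance. Atf3 held TTACGTCA, an ATF/CRE variant, at 10 bases before the start (0.447% of entries); it overlaps TGACG read on the other strand. The full cyclic AMP element TGACGTCA, which contains TGACG, was found only upstream of the second Maff start among the 10 entries (1.55% of all entries). The AP-1 element TGANTCA (6.75% of entries) and the CArG box bound by serum response factor (1.47%) were in none of the 10 stretches, which says only that these letters are not in this window. The stretches of Fosl2, of Jund, which also fell in culture, and of the first Maff start held none of the motifs searched. Whether the motifs bear on the culture changes was not tested.

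Over all probe sets, pairs of fresh arrays correlated at 0.977 to 0.992, pairs of cultured arrays at 0.987 to 0.996 and mixed pairs at 0.879 to 0.913. Array medians lay between 4.74 and 4.92 on the log2 scale. The 3' minus 5' signal of beta-actin, which reads RNA integrity and reverse transcription, was below 0 in all 8 fresh samples (-0.56 to -0.31, log2) and above 0 in all 8 cultured ones (0.03 to 0.18); its part in the changes below was not tested. All 9 measured fibroblast markers were above the range of the poly-A control probe sets (95th percentile 4.34) in every group. So were all 6 measured pericyte and smooth muscle markers in both fresh groups, so this limit alone does not identify the cell type. Every group mean of the 9 AP-1 genes was above that range as well.

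The first comparison asked how the 9 genes differed between cultured and freshly isolated fibroblasts. Most of the family was lower in culture: Atf3, Junb, Fos, Jund, Fosb and Jun fell at both ages, by 3.12-fold to 9.74-fold over both ages. Fosl1 went the other way and rose 2.95-fold in young and 1.68-fold in old cells. Maff did not pass, and for Fosl2 the probe sets on the array disagreed in direction. Over both ages 6 members fell, 2 rose (Fosl1 and Fosl2) and 1 did not pass the threshold, an adjusted p of 0.05 in limma; of all genes tested, 44.7% were lower and 34.8% higher by the same rule. In young cells alone 6 members fell and 1 rose (38.6% and 32.6% of all genes), and in old cells alone 6 fell and 1 rose (32.5% and 30.2%). Across both ages the fresh and cultured arrays did not overlap for the 6 falling members and for Fosl1, against 21.2% of all genes lower and 23.9% higher without overlap. A fall of at least 2-fold that passed was found in 8.10% of all genes and in the same 6 members, for Jund with the brighter probe set only (the second changed by -0.66, log2, over both ages). The median log2 change was -1.86 for the 9 members and -0.11 for all genes. Because whole samples were measured, fewer cells of a type and less RNA per cell cannot be told apart, and handling during isolation differs between the conditions along with culture, so these cannot be told apart either.

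**Figure D1:**
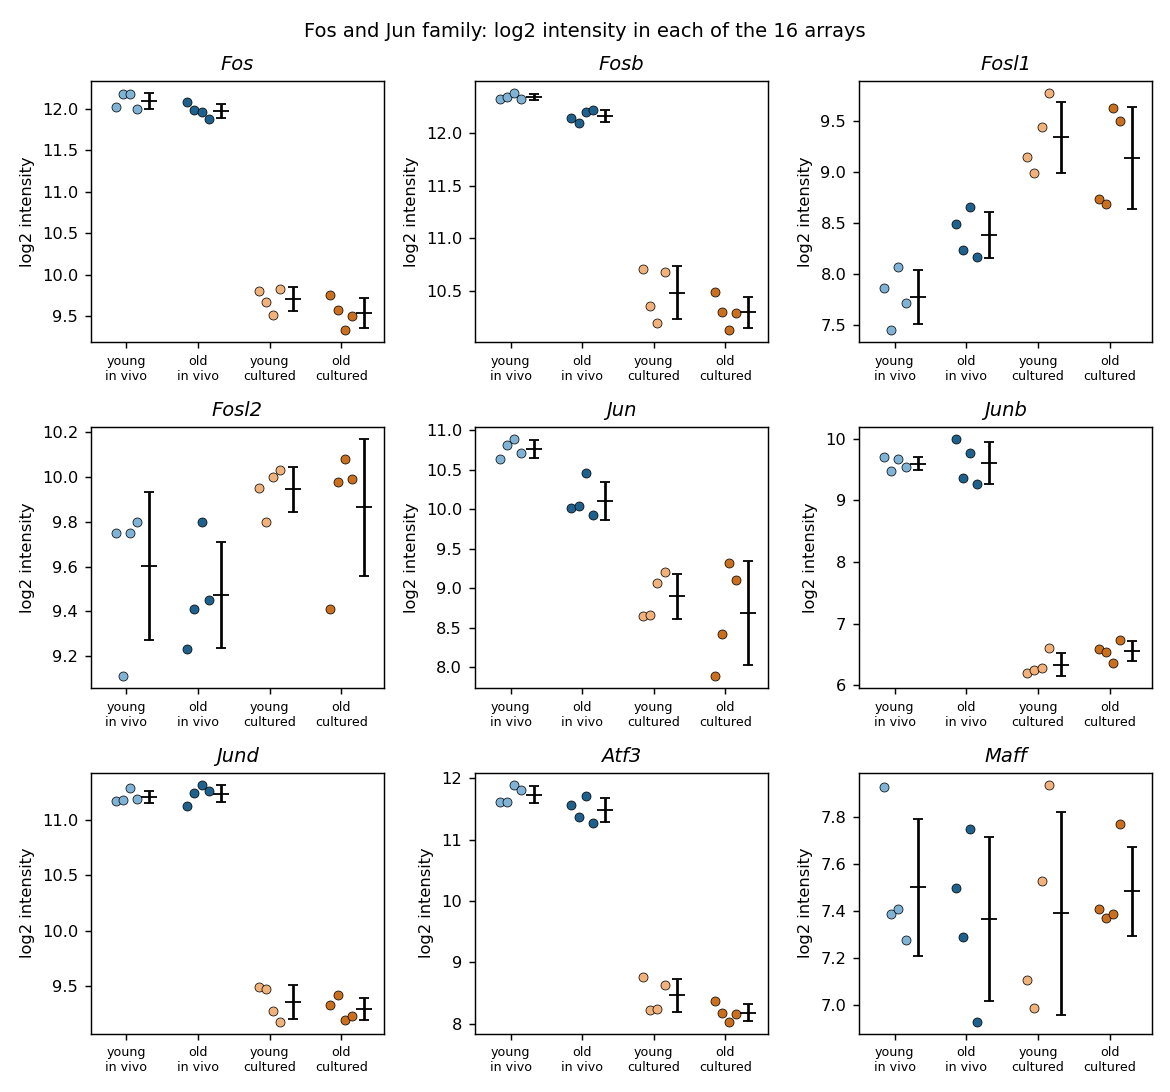
Log2 intensity (y axis, a separate scale in each panel) of the 9 genes in the 16 arrays, by group (x axis), with each dot an array and the bar beside the dots the mean ± SD of 4 arrays. Fos, Fosb, Jun, Junb, Jund and Atf3 lie higher in all in vivo than in all cultured arrays, Fosl1 lies lower, and Fosl2 and Maff overlap.

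Fos, the founding member of the family, fell at both ages. In fresh young samples 1 to 4 its log2 values were 12.02, 12.18, 12.17 and 12, and in fresh old samples 12.08, 11.98, 11.96 and 11.87. In cultured young samples they were 9.80, 9.67, 9.51 and 9.83, and in cultured old samples 9.76, 9.57, 9.33 and 9.50. The fresh and cultured ranges were far apart at both ages, and the ages overlapped within each condition. The log2 change with culture was -2.39 ± 0.10 (SE of the fit, n = 4 arrays per group) in young and -2.43 ± 0.10 in old cells (limma, adjusted p = 3.56e-12 and 2.90e-12), 5.24-fold and 5.40-fold lower. In the young comparison the groups did not overlap, in this direction, for 33.0% of all genes, and in the old comparison for 30.5%.

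Fosb, which also encodes a full-length activator, likewise fell at both ages, but among fresh samples its ages did not overlap. It ranged from 12.32 to 12.38 in fresh young and from 12.09 to 12.22 in fresh old samples, against 10.20 to 10.71 in cultured young and 10.13 to 10.49 in cultured old samples. The highest value on any array was 13.08, so fresh Fosb, like fresh Fos, lay toward the top of the scale. Whether differences are narrowed there was not tested. The log2 change was -1.85 ± 0.11 in young and -1.86 ± 0.11 in old cells (limma, adjusted p = 1.99e-10 and 2.08e-10).

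Fosl1, encoding FRA-1, was lowest in fresh young cells and ran against the members named so far. Its log2 values were 7.86, 7.45, 8.07 and 7.72 in fresh young samples 1 to 4 and 8.49, 8.23, 8.65 and 8.17 in fresh old samples. In culture they were 9.14, 8.99, 9.44 and 9.77 in young and 8.73, 8.68, 9.62 and 9.50 in old samples. All cultured samples lay above all fresh ones, although the lowest cultured old sample exceeded the highest fresh old sample by little, and the cultured ages overlapped. The change was 1.56 ± 0.22 in young (adjusted p = 8.53e-06) and 0.75 ± 0.22 in old cells (adjusted p = 0.00720, limma); cultured samples lay above fresh ones without overlap for 30.6% of all genes in young and 27.6% in old cells. After cyclic loess normalisation the old change was 0.49 ± 0.24 and no longer passed (adjusted p = 0.0939). The second Fosl1 probe set gave larger changes, 3.01 ± 0.28 in young and 1.92 ± 0.28 in old cells, from means of 5.80 and 6.62 in vivo to 8.81 and 8.54 in culture.

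Fosl2, encoding FRA-2, cannot be given a direction. With the brighter probe set its values were 9.75, 9.11, 9.75 and 9.80 in fresh young and 9.23, 9.41, 9.80 and 9.45 in fresh old samples. In culture they were 9.95, 9.80, 10 and 10.03 in young and 9.41, 9.98, 10.08 and 9.99 in old samples. Fresh and cultured samples overlapped, and the change over both ages was 0.37 ± 0.12 (limma, adjusted p = 0.00971), with neither age passing alone (adjusted p = 0.0769 in young and 0.0511 in old). It no longer passed with arrays scaled to their 75th percentile (0.17, adjusted p = 0.200) or normalised by cyclic loess (0.06, adjusted p = 0.674). The second probe set, at 7.84 and 7.97 in vivo and 7.34 and 7.12 in culture, was lower in cultured cells by a log2 change of -0.50 ± 0.14 in young (adjusted p = 0.00466, over all probe sets) and -0.85 ± 0.14 in old cells (adjusted p = 5.09e-05). The scaling to the 75th percentile moved the culture change of the median gene from -0.11 to -0.31, so small changes depend on it.

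Jun, the partner common to many AP-1 dimers, fell at both ages, with a wide spread among cultured old samples. Its log2 values were 10.63, 10.81, 10.89 and 10.71 in fresh young and 10.01, 10.04, 10.46 and 9.92 in fresh old samples. In culture they were 8.65, 8.66, 9.07 and 9.21 in young and 7.89, 8.42, 9.32 and 9.11 in old samples. Conditions did not overlap at either age, and the SD was 0.65 in cultured old samples against 0.11 to 0.29 in the other groups. The log2 change was -1.86 ± 0.24 in young and -1.42 ± 0.24 in old cells (limma, adjusted p = 3.02e-06 and 6.61e-05). The second Jun probe set gave -2.93 ± 0.15 and -2.85 ± 0.15.

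Junb, which encodes a weaker activator that can oppose Jun, showed one of the larger falls. Its values were 9.70, 9.47, 9.67 and 9.54 in fresh young and 10, 9.37, 9.76 and 9.27 in fresh old samples. Cultured samples had 6.20, 6.25, 6.28 and 6.61 in young and 6.58, 6.54, 6.36 and 6.74 in old samples. The conditions were separated by more than the whole spread of either, and the change was -3.26 ± 0.14 in young and -3.05 ± 0.14 in old cells (limma, adjusted p = 7.09e-12 and 1.65e-11), 9.58-fold and 8.25-fold lower.

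Jund is the Jun gene that is expressed steadily in most cells rather than as an immediate early gene, and it fell as well. It ranged from 11.17 to 11.29 in fresh young and 11.13 to 11.32 in fresh old samples, and from 9.18 to 9.49 and 9.20 to 9.42 in the cultured ones. The change was -1.85 ± 0.09 in young and -1.94 ± 0.09 in old cells (limma, adjusted p = 1.35e-11 and 7.80e-12). The second Jund probe set, at 6.02 to 6.75 on average, fell less, by 0.64 ± 0.09 and 0.67 ± 0.09.

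Atf3, a stress-induced factor of the ATF family that pairs with Jun proteins, had the largest change of the 9 genes when each was represented by its brightest probe set. Fresh young samples had values of 11.61, 11.62, 11.90 and 11.81, and fresh old samples 11.56, 11.37, 11.71 and 11.27. Cultured young samples had 8.76, 8.22, 8.24 and 8.63, and cultured old samples 8.37, 8.17, 8.03 and 8.16. No fresh sample came near a cultured one, and the ages overlapped in both conditions. The change was -3.27 ± 0.13 in young and -3.30 ± 0.13 in old cells (limma, adjusted p = 2.59e-12 and 2.51e-12), 9.66-fold and 9.81-fold lower.

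Maff, a small Maf protein that has no activation domain of its own and pairs with CNC factors such as NRF2, ranged from 7.28 to 7.93 in fresh young, 6.93 to 7.75 in fresh old, 6.99 to 7.94 in cultured young and 7.37 to 7.77 in cultured old samples. All 4 groups overlapped. Its change over both ages was 0.00 ± 0.15, with a 95% interval of -0.31 to 0.31 (limma, adjusted p = 0.982). Against the median gene it was 0.11 higher.

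**Figure D2:**
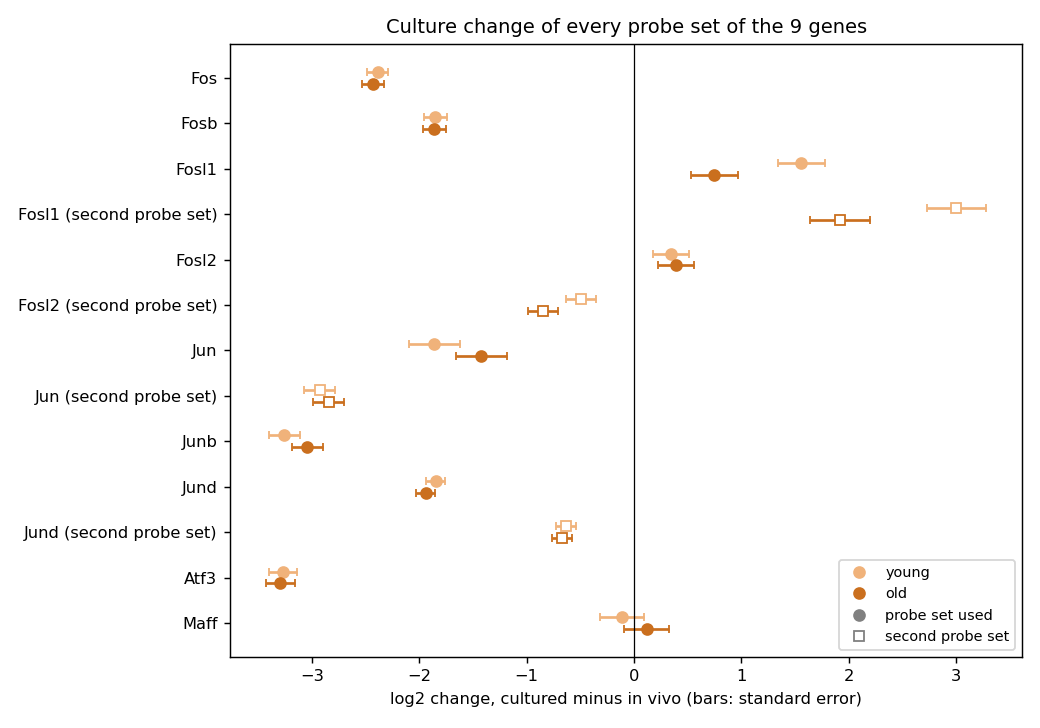
Log2 change with culture (x axis, cultured minus in vivo; bars are the standard error of the fit) of each of the 13 probe sets of the 9 genes (y axis), in young and old cells. Filled circles are the probe sets used; open squares are the second probe sets of Fosl1, Fosl2, Jun and Jund, which agree in sign with the first for Fosl1, Jun and Jund and differ in sign for Fosl2.

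Fosl1, which rose with both of its probe sets, was set against the 6 falling members within arrays. For each array the mean log2 value of the 6 was subtracted from that of Fosl1, and the culture change of this difference was taken. It was 3.97 in young cells (SD 0.22 among fresh and 0.29 among cultured arrays, n = 4) and 3.08 in old cells (SD 0.10 and 0.48). The 6 genes were picked by their fall in these arrays, so these values are a description and no test is given. Such a difference shows unequal change between genes, and the sizes of falls measured by different probe sets are not strictly comparable: the second probe sets of Jun and Jund alone would place Jun near Junb and Jund last among the falling genes.

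The 4 group means, centred on their own mean, were used to find genes of like pattern. Among the members the nearest pair was Fosb and Jund, with a root mean square difference of 0.09 (log2, over 4 groups), and the pair farthest apart was Fosl1 and Atf3 (2.24). No member was among the 2 nearest genes of another over all genes tested. The nearest to Fos were Pycard (0.03) and Mrnip (0.05), and the nearest to Fosb were Mst1r and Prkce (both 0.05). Jun was nearest to Ikzf4 (0.03) and Angptl4 (0.04), Junb to Aff3 (0.04) and Thbs3 (0.05), Jund to Gdf10 (0.04) and Nrbp2 (0.05), and Atf3 to Tubb4a and Atcayos (both 0.08). Fosl1 was nearest to 2310061I04Rik and Phlpp1 (both 0.03), Fosl2 to Tmem132a (0.01) and Miga1 (0.02), and Maff to Ctsq (0.00) and Aqp6 (0.01). With 14819 genes and 4 points such near matches are a description only.

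The second comparison asked whether age made a difference to the 9 genes. Among fresh samples Jun was lower in old than in young mice, by a log2 change of -0.65 ± 0.13 (1.57-fold, limma on the 8 in vivo arrays, adjusted p = 0.0438), and every old sample lay below every young one. Fosl1 pointed the other way at 0.61 ± 0.15, also without overlap, but did not pass (adjusted p = 0.0884). Of the 9 members 1 passed, lower in old cells, against 0.439% of all genes lower and 0.911% higher. Groups without overlap were found for Jun, Fosl1 and Fosb among the members, and for 8.53% of all genes. By exact permutation tests 3 of 9 members reached p = 0.0286, the smallest that 70 labelings allow, unadjusted, namely Jun, Fosl1 and Fosb. Any 4 against 4 samples without overlap give this p, so it restates the lack of overlap and is no further support. The difference for Fosb was small, -0.18 ± 0.09 (adjusted p = 0.374).

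The Jun difference passed under the other filters, scalings and the variance model tried (adjusted p = 0.0135 to 0.0499 in limma), but not in the following settings. The second Jun probe set had 10.63, 10.66, 10.75 and 10.76 in young and 10.35, 10.35, 10.72 and 10.30 in fresh old samples, so the groups overlapped, and its difference of -0.27 ± 0.11 did not pass (adjusted p = 0.307, over all probe sets). With 1 spread estimated over all 16 arrays the adjusted p of the first probe set was 0.125. Averaged over its probe sets, Jun differed by -0.46 ± 0.11 and did not pass (limma, adjusted p = 0.0807). Leaving out any of the 8 in vivo arrays except fresh old sample 3 also lost the call, with differences of -0.70 to -0.59 and adjusted p of 0.0561 to 0.120, whereas without that sample the difference was -0.77 and the adjusted p 0.0196. The 3' to 5' difference of Gapdh separated the ages in vivo too, at -0.08 ± 0.04 (SD, n = 4, -0.12 to -0.04) in young and -0.15 ± 0.02 (-0.17 to -0.13) in old samples, and the summed level of 9 keratinocyte markers was 1463 (linear scale) in fresh old sample 1 against 376 to 485 in the other 7. Without fresh old sample 1 the Jun difference was -0.62. Pericyte and smooth muscle markers summed to 276 to 339 in fresh young and 343 to 583 in fresh old samples, without overlap. That separation rests on Kcnj8, the same gene named below. Of the other markers in this list Mcam was higher in old samples (0.125). Rgs5 (-0.245), Notch3 (-0.22), Des (-0.12) and Myh11 (-0.03) were lower, and the list median was -0.08. Of the marker lists 3 genes passed for age in fresh samples (limma): the pericyte gene Kcnj8 was higher in old samples (1.06 ± 0.22, adjusted p = 0.0494), the macrophage gene Csf1r lower (-1.08 ± 0.15, adjusted p = 0.00995) and the collagen gene Col1a2 lower (-0.64 ± 0.13, adjusted p = 0.0493). The part of RNA quality and of other cell types in the Jun difference was not tested.

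The Fosl1 difference had the same sign with its second probe set, which read 6.21, 5.31, 5.87 and 5.82 in young and 6.56, 6.11, 7.33 and 6.47 in fresh old samples. Only fresh old sample 2 lay within the young range, and the difference of 0.82 ± 0.25 did not pass (adjusted p = 0.164). The remaining members differed with age in vivo by -0.26 (Atf3) to 0.03 (Jund), and none passed. For Fos the difference was -0.12, with a 95% interval of -0.33 to 0.09, and for Junb 0.01 (-0.34 to 0.35).

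In cultured cells no member passed for age in limma (0 of 9 at adjusted p under 0.05), and by this rule 0.00% of all genes passed. The members also gave 0 of 9 at an unadjusted p under 0.05 and 0 of 9 by exact permutation tests at 0.05. For those rules no share of all genes was taken. The differences ran from -0.28 ± 0.13 for Atf3 to 0.22 ± 0.11 for Junb. Jun was -0.21 with a 95% interval of -0.87 to 0.44 and Fosl1 -0.20 (-0.76 to 0.36). The in vivo estimate lies inside this interval for Jun and outside it for Fosl1. For Fosl1 the in vivo interval, 0.27 to 0.95, overlaps that in culture, and the direct test of the 2 conditions, given below, did not pass. A loss of the Fosl1 difference in culture is therefore not shown.

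**Figure D3:**
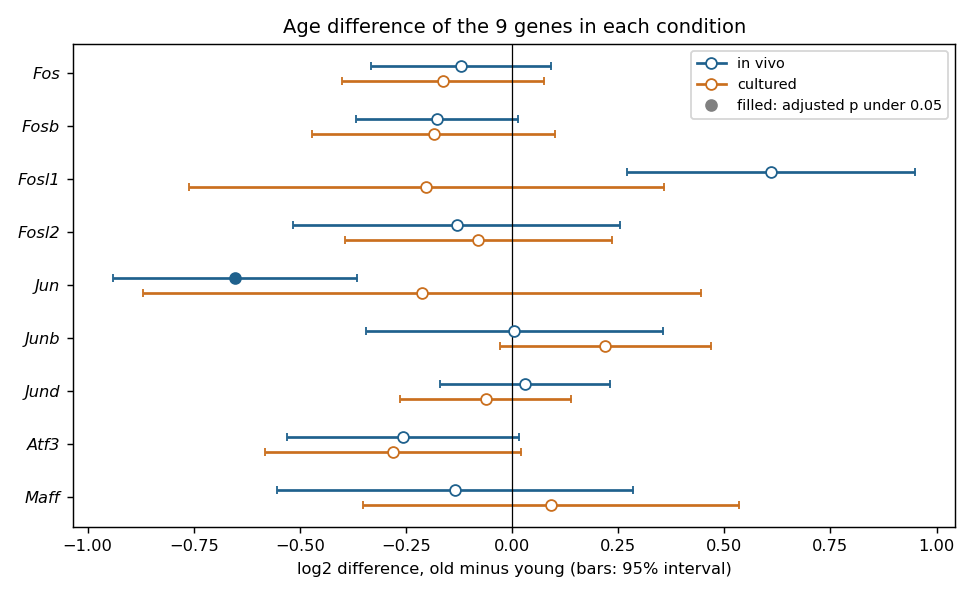
Log2 difference between old and young samples (x axis, old minus young; bars are 95% intervals of the fit) of the 9 genes (y axis), in vivo and in culture, each from 8 arrays. The filled point is Jun in vivo at -0.65; the other points are open and did not pass an adjusted p of 0.05.

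Whether culture changed the genes differently in old and in young cells was tested as the age difference in culture minus that in vivo. None of the 9 passed in limma (0 of 9 at an adjusted p under 0.05), against 0.587% of all genes by the same rule. At an unadjusted p under 0.05 the count was 1 of 9. No share of all genes was taken by that rule, so this count is not read as a result. The largest was Fosl1 at -0.81 ± 0.31 (limma, unadjusted p = 0.0179, adjusted p = 0.264). Its estimated rise in culture was smaller in old cells, but neither this nor the age difference of Fosl1 in fresh samples passed. With the second Fosl1 probe set the value was -1.09 ± 0.40 (limma, adjusted p = 0.264). For Jun the value was 0.44 ± 0.34 (adjusted p = 0.647), and for Fos -0.04, Fosb -0.01, Atf3 -0.02 and Jund -0.09.

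Genes that surround AP-1 in the same pathway were then counted from lists, with changes over both ages. Of 18 tested genes in the list of other immediate early genes, 15 fell, 2 rose and 1 did not pass (median -1.46). Gadd45b, a stress-induced gene of growth arrest and DNA damage responses, fell by 2.57 ± 0.09 and Btg2, an antiproliferative gene, by 2.23 ± 0.10. Myc, the growth-promoting transcription factor, rose by 0.57 ± 0.09. Ier5 was at the edge of the control range in fresh cells (means of 4.37 in young and 4.31 in old). It was at least 1.22-fold higher in culture, a lower bound taken against that limit (4.34, or the array's own value where higher). The direction of most of this list was therefore that of Fos, Jun and Atf3, not of Fosl1. Of all genes 44.7% were lower and 34.8% higher.

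Other proteins with a leucine zipper that can pair with AP-1 or Maf factors showed smaller changes: 7 of 11 fell, 2 rose and 2 did not pass (median -0.29). By the same rule 44.7% of all genes were lower and 34.8% higher. Maf fell by 1.18 ± 0.20 and Batf2, an interferon-related relative, by 0.92 ± 0.16. Batf3, counted among those that fell, was at the edge of the control range in culture (means of 4.27 in young and 4.35 in old cells). Mafg, a small Maf like Maff, rose by 0.44 ± 0.09, and Jdp2, a Jun-dimerising repressor, by 0.23 ± 0.06.

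Of the kinases that activate AP-1, 5 of 12 rose, 5 fell and 2 did not pass (median -0.07), close to the shares of all genes (34.8% higher, 44.7% lower) and to their median of -0.11. Map3k8, the kinase TPL2 that relays inflammatory signals to ERK, fell by 3.69 ± 0.12, to levels at the edge of the control range in culture (4.44 and 4.34 in young and old cells), where a further fall could not be measured. Map3k5, the stress kinase ASK1, fell by 0.90 ± 0.13. Map2k6 is counted among the kinases that fell, but it was within the control range in every group. Its means were 4.03 and 4.08 in fresh and 3.70 and 3.68 in cultured young and old samples. Map2k4, which activates JNK, rose by 1.48 ± 0.11 and Map2k3, which activates p38, by 0.99 ± 0.12. The JNK genes Mapk8 (-0.10 ± 0.08) and Mapk9 (-0.03 ± 0.07), chosen here after their values were seen, were those that did not pass.

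Of the phosphatases that switch off MAP kinases, 3 of 9 rose, 4 fell and 2 did not pass (median 0.18), again close to the shares of all genes. Dusp4 rose by 3.34 ± 0.24. Dusp6, which acts on ERK and is itself induced by ERK signalling, was within the control range in fresh cells and at least 4.30-fold higher in culture. Dusp1, an immediate early phosphatase of p38 and JNK, fell by 1.02 ± 0.06, and Dusp8 by 0.45 ± 0.09. Of serum response factor and its cofactors, 4 of 5 rose and 1 fell (median 0.76). This compares with 34.8% of all genes higher and 44.7% lower. Elk3 rose by 1.55 ± 0.10 and Mrtfa, the actin-regulated cofactor, by 1.26 ± 0.07, while Mrtfb fell by 0.73 ± 0.06. Fos was lower in the same arrays, and a link between this list and Fos was not tested.

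Genes known as AP-1 targets were mostly higher in culture, with 12 of 18 rising, 4 falling and 2 not passing (median 0.82). By the same rule 34.8% of all genes were higher and 44.7% lower. Ptgs2, the inducible prostaglandin synthase, was within the control range in fresh cells and at least 16.8-fold higher in culture, and Timp1, an inhibitor of metalloproteinases, rose by 3.59 ± 0.11. Mmp3, the metalloproteinase stromelysin, fell by 3.43 ± 0.15. The cytokine Il6 was within the control range in culture and at least 1.82-fold lower there. Ezr and Il11, counted among the targets that rose, were within the control range in fresh cells. Their fresh young and old means were 3.75 and 3.735 for Ezr and 4.22 and 4.24 for Il11. No gene of the 6 pathway lists passed for age in vivo, for age in culture or for the interaction in limma.

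**Figure D4:**
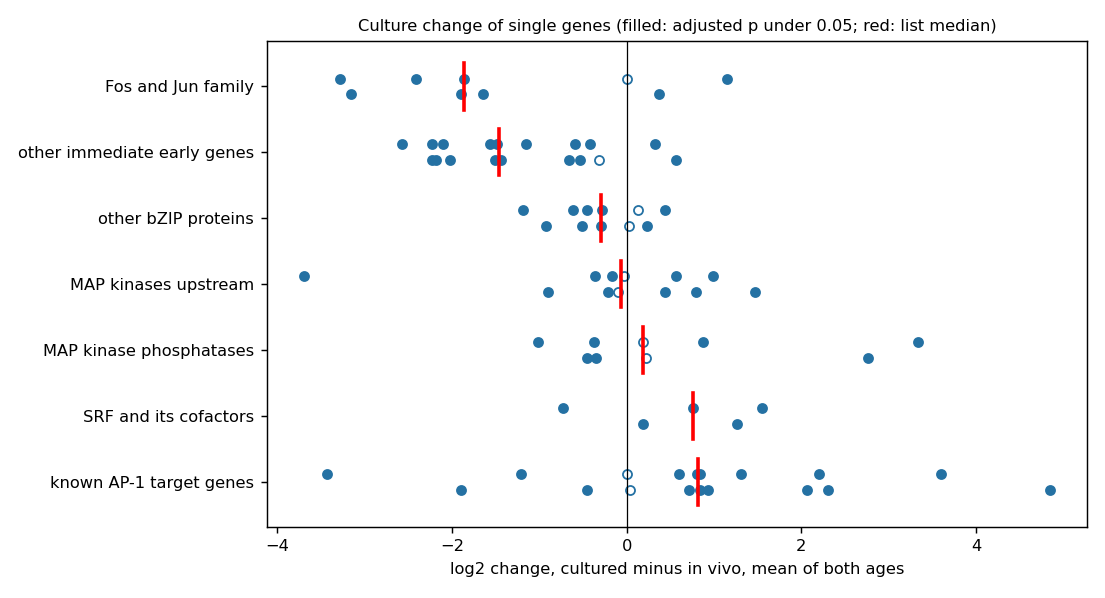
Log2 change with culture over both ages (x axis, cultured minus in vivo) of each tested gene of the 9 AP-1 genes and of 6 pathway lists (y axis). Filled points passed an adjusted p of 0.05 and red bars are list medians. For Ptgs2, Dusp6, Il6, Ier5, Ezr, Il11 and Batf3 the mean over both ages was within the control range in 1 condition. Map2k6 and Mmp10 were within it in every group. The medians run from -1.86 for the Fos and Jun family and -1.46 for other immediate early genes to 0.76 for SRF and its cofactors and 0.82 for known AP-1 targets.

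Markers of other cell types differed with culture to varying extents, and their part in the changes of the 9 genes was not tested. Their counts stand beside 44.7% of all genes lower and 34.8% higher, and the keratinocyte count lay near the share of lower genes. The summed level (linear scale) of 12 macrophage markers was 493 to 839 in fresh young and 487 to 652 in fresh old samples, against 267 to 323 and 267 to 296 in cultured ones; 7 of 8 tested genes fell and none rose, and Adgre1, C1qa, C1qb, Mrc1, Itgam and Cd163 were within the control range in all 4 groups. For 10 endothelial markers the sums were 392 to 464, 436 to 775, 231 to 275 and 228 to 284 in the same order, 7 of 10 fell and none rose, and Tie1, Emcn and Cldn5 were within the control range throughout. For 9 keratinocyte markers they were 376 to 485, 410 to 1463, 255 to 307 and 231 to 268, with 4 of 8 lower and 1 higher, and Krt1 and Cdh1 within the control range throughout. T cell markers (5 genes) summed to 134 to 156, 146 to 165, 119 to 143 and 110 to 136, with 5 of 5 lower and Cd3e, Cd3g and Cd2 within the control range throughout. Pericyte and smooth muscle markers (6 genes) summed to 276 to 339, 343 to 583, 702 to 1002 and 384 to 591, with 2 of 6 higher and 2 lower. The 9 fibroblast markers summed to 27407 to 28077 in fresh young and 25375 to 29106 in fresh old samples, and to 13084 to 14619 and 13024 to 14216 in cultured ones, with 8 of 9 lower.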

How the data were processed

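The deposited table holds 1 log2 intensity per probe set (45141 probe sets, 16 arrays), which the authors made with RMA and the package affy, per the submitters' processing notes. The range of the values set the base of the logarithm; whether all arrays were normalised together is not given in the sources used here. RMA narrows differences of dim genes and makes each change relative to all genes measured. No 2 arrays were identical (0 pairs). Of the probe sets 28898 carried 1 gene symbol, 551 several and 15692 none; 28689 were matched by gene ID to RefSeq (GRCm38.p6) for current symbols. A gene was tested if at least 4 arrays lay above 3.87, the 25th percentile of all values.

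Culture changes and the interaction were fitted with limma 3.58.1 (R 4.3.3) to all 16 arrays, and age differences to the 8 arrays of each condition, because the median residual SD was 0.185 in vivo and 0.129 in culture; two-sided p-values were adjusted by Benjamini-Hochberg over 14819 genes. The steps were tested on simulated data. The number of arrays limits the precision, and without labels for mouse and day no block could be fitted. The named genes were all 9 members, of each pathway list the 2 called genes with the largest rise and fall (fewer where fewer passed), and the 2 genes nearest in pattern to each member. Members and lists were chosen with earlier results of these data known. Alternatives were the fit, the filter, the scaling, the probe set, the variance model, an exact permutation test and leaving out each array. A planned permutation test against the falling members is not read as a test, since the same values chose those members.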

Additional observations from a re-analysis of the deposited data

Results flagged for a closer look

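In 4 of the 36 groups of 4 arrays examined (9 genes in 4 groups), 1 sample lay far from the other 3 by Dixon's criterion, which chance gives in about 1 in 20 groups. Fosl2 was 9.11 in fresh young sample 2, with the nearest at 9.75, and 9.41 in cultured old sample 1, with the nearest at 9.98. Jund was 11.29 in fresh young sample 3, where the next was 11.19 and all 4 values lay close together. Maff was 7.77 in cultured old sample 4, with the next at 7.41. Without cultured old sample 1 the rise of Fosl2 in old cells was 0.54 ± 0.16 and passed in limma (adjusted p = 0.00720).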

How the results depend on the processing

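The 6 falls and the rise of Fosl1 in young cells kept direction and call under the alternatives run for culture (fit, filter, scaling, probe set, variance model and left-out arrays); the exact test was run for age only. For culture over both ages the count of members called was 8 with each array left out, and it was 7 to 8 in young and 7 to 8 in old cells. Over both ages it was 7 with the 75th percentile, cyclic loess or the mean over probe sets, in old cells 6 (0 higher) with cyclic loess, and over both ages 7 were lower and 1 higher with the second probe sets. The count for age in vivo, 1 in the main setting, was 0 with all 16 arrays in 1 fit, with the mean over probe sets and with the second probe sets (chosen after seeing the data), and 0 to 1 with each array left out, while unadjusted exact tests gave 3; for age in culture and for the interaction it stayed 0 to 0. The culture change of Fosl2 reversed to -0.15 (adjusted p = 0.158) with the mean over probe sets and, with its second probe set, to -0.50 in young, -0.85 in old and -0.67 over both ages. Over all genes, age in vivo had 200 calls, 900 with all 16 arrays in 1 fit, and 60 (without fresh young sample 2) to 306 (without fresh old sample 1) with 1 array left out, when 47.8% to 70.3% of calls were higher. Of the calls for culture 43.7% were higher, and 32.5% after scaling to the 75th percentile; for age in vivo the shares were 67.5%, 43.9% and, after cyclic loess, 51.1%. No paired analysis was possible because the labels give no replicate numbers that tie fresh to cultured samples. The cause of these changes was not tested.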

Other observations

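Among cultured samples Jun and Fosl1 varied together in both ages. Cultured old samples 1 and 2 had Jun at 7.89 and 8.42 and Fosl1 at 8.73 and 8.68, whereas samples 3 and 4 had Jun at 9.32 and 9.11 and Fosl1 at 9.62 and 9.50. Cultured young samples 1 and 2 had Jun at 8.65 and 8.66 and Fosl1 at 9.14 and 8.99, and samples 3 and 4 had Jun at 9.07 and 9.21 and Fosl1 at 9.44 and 9.77. The second probe sets gave a like split, with Fosl1 at 8.02, 8.11, 9.05 and 8.97 and Jun at 7.28, 7.40, 7.80 and 7.86 in cultured old samples 1 to 4. Jund ran the other way in cultured young samples, at 9.49, 9.48, 9.28 and 9.18, and in old ones, at 9.33, 9.42, 9.20 and 9.23. In the serial numbers of the sample titles, cultured samples 1 and 2 of both ages come before samples 3 and 4. The split therefore follows this order, and what the serial numbers stand for is not given. The labels give no collection day for these samples, the pattern was noticed after the values were seen, and it was not tested.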
